A study of Homo sapiens with 6 samples.

Results

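The BCL2 family decides, by contacts among its own proteins at the outer mitochondrial membrane, whether that membrane is opened and cytochrome c let out. Its 10 members described here were taken by gene symbol from 62656 genes, and all 10 were matched. They are the pro-survival genes BCL2, BCL2L1 (BCL-XL), BCL2L2 (BCL-W) and MCL1, the pore-forming effectors BAX and BAK1, and the BH3-only genes PMAIP1 (NOXA), BBC3 (PUMA), BCL2L11 (BIM) and BID. RNA came from OVCAR5 cells, a long-established human line that serves as an ovarian cancer model, after 3 days with 100 nM NTX301 (3 libraries) or with the solvent dimethyl sulfoxide, DMSO (3 libraries). The labels call NTX301 a hypomethylating agent, a name for compounds that reduce cytosine methylation in DNA. All libraries come from 1 cell line, and no other line, dose or time was analysed. Whether replicates were separate cultures is not stated, and p-values therefore cover only the spread between these libraries, which may be technical.

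In healthy and tumour cells the pro-survival proteins hold BAX and BAK1 in check, and the BH3-only proteins, induced or activated by stress, bind the pro-survival proteins or activate the effectors directly. Partners are selective: NOXA binds mainly MCL1, whereas PUMA and BIM bind every pro-survival member. Transcript levels give only part of this balance, since BID is activated by cleavage, BAX by a change of shape, and MCL1 and NOXA are proteins with fast turnover.

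The NTX301 libraries held 23194160 to 23842859 estimated counts in total, and the DMSO libraries 22131175 to 25743732. On the second principal component of log2 CPM (counts scaled to a common library total), DMSO replicate 3 stood at -34.47, against 13.47 and 22.54 for the other DMSO libraries. Of 19029 genes tested, 70.5% passed an edgeR quasi-likelihood test at a Benjamini-Hochberg adjusted p under 0.05, with a rise in 35.4% and a fall in 35.1% of the tested genes. The CPM values of the groups did not overlap in 73.7% of tested genes, so a change or a gap between groups was the usual result in these libraries. Fold changes are relative to the typical gene: without a scaling factor the median log2 fold change of all genes was 0.21, and the share of calls that rose was 65.01% in place of 50.25%. Markers of epithelium were high in both groups (summed TPM, abundance per transcript length within a library, of 10 genes 2748 to 2822 with NTX301 and 4479 to 4663 with DMSO), although WT1 and MUC16 were near 0. Most of that sum was KRT8 and KRT18, which fell by 1.08 each on the log2 scale, while KRT7 rose by 1.26 and CDH1 by 0.31. These were the only rises: of 9 tested epithelial markers 6 fell and 2 rose, with a median log2 fold change of -0.93. The summed TPM of 7 leukocyte markers was 31.6 to 32.9 with NTX301 and 20.4 to 21.5 with DMSO, mostly from CD14, with PTPRC and CD3E near 0 and MS4A1 at 0 in all libraries. The 8 fibroblast markers summed to 21.1 to 21.95 with NTX301 and 5.21 to 5.89 with DMSO, and 5 endothelial markers to 2.30 to 2.46 with NTX301 and 1.47 to 1.64 with DMSO. COL1A1, PDGFRA and PDGFRB made up most of the fibroblast sum, and COL1A2, DCN and FAP were near 0. LUM fell (log2 -0.66, edgeR adjusted p = 0.012), as did the leukocyte marker LYZ (log2 -0.57, edgeR adjusted p = 0.01). The calls of LUM and LYZ were lost with DESeq2 (DESeq2 adjusted p of 0.081 and 0.068) and without a scaling factor (edgeR adjusted p of 0.065 and 0.074). The part of these cell types in the results was not tested. In bulk RNA fewer cells of a type and less RNA per cell cannot be told apart.

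All 10 members passed the filter on low counts, 4 rose and 3 fell, and 3 were not past the threshold, which as shares is close to those of all tested genes given above. The median log2 fold change of the members was -0.04, against 0.00 for all tested genes, and without a scaling factor 0.16, against 0.21. The family did not move as a block: within each role some genes went up while others went down or stayed near their DMSO level. PMAIP1 (NOXA) rose 2.89-fold and BBC3 (PUMA) fell 2.46-fold. BCL2 rose 3.02-fold on very few reads, BCL2L2 (BCL-W) and BCL2L11 (BIM) fell 1.58-fold and 1.43-fold, and BCL2L1 and BAK1 rose 1.15-fold and 1.17-fold. The sizes of the small changes depended on the scaling: without a scaling factor the log2 fold changes of BCL2L1 and BAK1 were 0.40 and 0.43, in place of 0.20 and 0.23, and on log2(TPM + 1) they were 0.44 and 0.42. By size, 3 members (BCL2, PMAIP1 and BBC3) changed by at least 1 on the log2 scale, and 21.9% of all tested genes were called with at least that change.

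**Figure D1:**
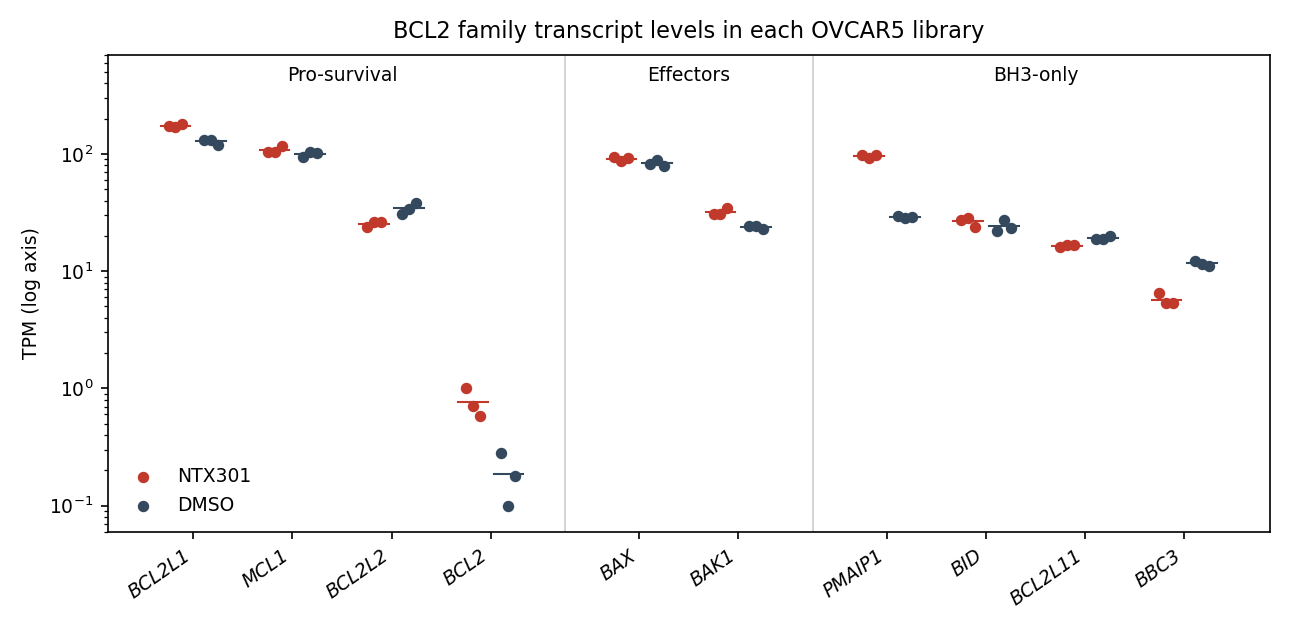
TPM (log axis) of the 10 members in each library, NTX301 in red and DMSO in dark blue, with a line at the mean of each group. PMAIP1 lies at 91.8 to 97.7 TPM with NTX301 and at 28.4 to 29.6 TPM with DMSO, while BBC3 lies below its DMSO libraries and BCL2 is the lowest gene in both groups.

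The upstream sequences of PMAIP1 and BBC3 are shown because these BH3-only genes moved furthest apart, and because CpG dinucleotides are the usual sites of cytosine methylation in human DNA. Each stretch is 5′ to 3′ on the gene's strand from RefSeq (GRCh38.p14), lies before the start RefSeq gives and outside the gene's GENCODE 29 exons, and has its CpG dinucleotides in capitals. The PMAIP1 stretch is chr18:59899746-59899947 (plus strand) and the BBC3 stretch chr19:47232767-47232917 (minus strand).
PMAIP1: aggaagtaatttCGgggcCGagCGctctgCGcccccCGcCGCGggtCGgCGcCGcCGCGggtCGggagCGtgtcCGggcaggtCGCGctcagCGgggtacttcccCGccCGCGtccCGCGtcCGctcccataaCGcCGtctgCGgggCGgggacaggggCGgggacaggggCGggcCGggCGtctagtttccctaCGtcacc
BBC3: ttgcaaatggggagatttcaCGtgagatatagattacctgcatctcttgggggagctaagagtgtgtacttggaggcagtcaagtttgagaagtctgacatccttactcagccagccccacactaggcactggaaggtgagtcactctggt
The PMAIP1 stretch holds 33 CpG in 202 bases and the BBC3 stretch 1 in 151 bases. Over the full window of 300 bases (250 before and 50 after the start), PMAIP1 has 42 CpG, at least as many as 95.0% of 35116 RefSeq windows, and BBC3 has 5, against a median of 14. Promoter windows were matched for 8 members, all but MCL1 and BCL2L2. BCL2L11, which fell, has 39 CpG and BAX, which was not past the threshold, 38. BCL2 has 31, the windows of BCL2L1 16 and 20, those of BID 6 to 37, and BAK1 7. Members with a window of 31 CpG or more were found among those that rose, those that fell and those not past the threshold. A relation between CpG count and change was not tested. TGACGT, the core of the site bound by ATF and CREB factors, was searched on both strands after the sequence had been seen, and occurs near the end of the PMAIP1 stretch, in no other of the 13 member windows, and in 7.98% of all windows. Methylation was not analysed here, and the gene tables do not say which start was used.

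Among pro-survival genes, BCL2L1 (ENSG00000171552.14, chromosome 20, 31664452 to 31723989 in GRCh38), whose main product BCL-XL binds BAX, BAK and most BH3-only proteins, was the most abundant. It had 172, 170 and 181 TPM with NTX301, against 133, 132 and 119 TPM with DMSO. In CPM it averaged 221 ± 2.67 with NTX301 and 193 ± 14.4 with DMSO (SD, n = 3 each). The groups did not overlap, and the rise was small, 0.20 ± 0.05 on the log2 scale (estimate ± SE, edgeR adjusted p = 0.0043). Without DMSO replicate 3, its lowest library, the log2 fold change was 0.12 and still past the threshold (edgeR adjusted p = 0.008). ABALON, a noncoding gene on the other strand, covers 42.97% of its exonic bases, and was given 3.28 CPM with NTX301 and 2.85 CPM with DMSO. The division of reads between these genes is an estimate, and how the counting treated strand is not stated. The part of the overlap in the BCL2L1 values was not tested.

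MCL1 (ENSG00000143384.14, chromosome 1, 150574551 to 150579738), the short-lived survival factor that NOXA binds, had 211, 206 and 220 CPM with NTX301, against 216, 219.5 and 232 CPM with DMSO. The groups overlapped, and the log2 fold change of -0.07 ± 0.04 was not past the threshold (edgeR adjusted p = 0.17, and 0.016 to 0.41 over the alternatives). Its sign depended on the scaling, at 0.14 without a scaling factor (edgeR adjusted p = 0.016). BCL2L2 (ENSG00000129473.11, chromosome 14, 23298790 to 23311759), the BCL-W gene, had 39.9, 43.75 and 40.4 CPM with NTX301, against 62.5, 64.6 and 68.5 CPM with DMSO. All NTX301 libraries lay below all DMSO libraries, a fall of 0.65 ± 0.05 on the log2 scale (edgeR adjusted p = 3.5e-07), with a log2 fold change of -0.42 on log2(TPM + 1) (limma adjusted p = 0.002). Its first exons are also those of the readthrough gene BCL2L2-PABPN1, which shares 19.41% of its exonic bases and averaged 12.9 CPM with NTX301 and 13.3 CPM with DMSO. The division of reads between these genes is RSEM's estimate, so the level of BCL2L2 is uncertain.

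BCL2 (ENSG00000171791.14, chromosome 18, 63123346 to 63320128), the founding member, gave few reads in OVCAR5. It had 60, 54 and 48 counts with NTX301, against 25, 9 and 14 counts with DMSO. The groups did not overlap, but the DMSO libraries differed among themselves by more than 2-fold. The rise was 1.59 ± 0.30 on the log2 scale (edgeR adjusted p = 0.00052), from 1.27 to 2.03 with 1 library left out. At 0.763 ± 0.215 TPM with NTX301 and 0.187 ± 0.0902 TPM with DMSO (SD, n = 3 each), it made up 0.249% of the summed TPM of the 4 pro-survival genes with NTX301 and 0.0715% with DMSO.

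Of the effectors, BAX (ENSG00000087088.21, chromosome 19, 48954815 to 48961798) had 45.8, 43.2 and 41.5 CPM with NTX301, against 46.4, 43.9 and 41.8 CPM with DMSO. The groups overlapped almost fully, with a log2 fold change of -0.02 ± 0.05 (edgeR adjusted p = 0.77, and 0.0063 to 0.88 over the alternatives). Without a scaling factor it was 0.19 and past the threshold (edgeR adjusted p = 0.0063), close to the median of all genes under that setting. BAK1 (ENSG00000030110.14, chromosome 6, 33572547 to 33580293) had 34.7, 34.3 and 37.2 CPM with NTX301, against 31.6, 30.75 and 28.2 CPM with DMSO. The groups did not overlap, and the rise was 0.23 ± 0.06 (edgeR adjusted p = 0.0038). Its pseudogene BAK1P1 stood at 0.421 CPM with NTX301 and 0.279 CPM with DMSO.

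Among BH3-only genes, PMAIP1 (ENSG00000141682.12, chromosome 18, 59899948 to 59904306), which encodes the MCL1 antagonist NOXA, had 92.9, 86.75 and 86.6 CPM with NTX301, against 31.55, 30.5 and 30.1 CPM with DMSO. The lowest NTX301 library was well over 2-fold above the highest DMSO library. The log2 fold change was 1.53 ± 0.05 (edgeR adjusted p = 1.8e-10), and 1.49 to 1.55 with 1 library left out. A rise of this size or more was seen in 7.43% of tested genes.

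BBC3 (ENSG00000105327.18, chromosome 19, 47220822 to 47232766), which encodes PUMA, had 5.725, 4.72 and 4.59 CPM with NTX301, against 13.3, 12.04 and 11.7 CPM with DMSO. All NTX301 libraries were below all DMSO libraries, and the log2 fold change was -1.30 ± 0.11 (edgeR adjusted p = 5.2e-07). A fall of this size or more was seen in 4.635% of tested genes.

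BCL2L11 (ENSG00000153094.24, chromosome 2, 111119378 to 111168447), the BIM gene, had 40.8, 39.4 and 39.7 CPM with NTX301, against 56.4, 55.95 and 58.98 CPM with DMSO. The groups were far apart relative to their spread, and the fall was 0.51 ± 0.04 on the log2 scale (edgeR adjusted p = 6.2e-07). The log2 fold change was smaller without a scaling factor, at -0.31 (edgeR adjusted p = 6.7e-05), and on log2(TPM + 1), at -0.21 (limma adjusted p = 0.0073). MIR4435-2HG, a long noncoding host gene on the other strand, covers 10.92% of the exonic bases of BCL2L11 and averaged 89.6 ± 1.925 CPM with NTX301 and 26.8 ± 3.51 CPM with DMSO (SD, n = 3 each), the opposite direction. How the counting treated strand is not stated, and without it reads that lie within the shared bases cannot be told apart.

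BID (ENSG00000015475.19, chromosome 22, 17734138 to 17774770), which caspase-8 cleaves to link death receptors to mitochondria, had 18.02, 18.65 and 16.9 CPM with NTX301, against 19.6, 20.5 and 17.7 CPM with DMSO. The groups overlapped and the log2 fold change of -0.11 ± 0.07 was not past the threshold (edgeR adjusted p = 0.18, and 0.036 to 0.44 over the alternatives). Without DMSO replicate 3 it was -0.18 and past the threshold (edgeR adjusted p = 0.036), and without a scaling factor it had the opposite sign, 0.09 (edgeR adjusted p = 0.25).

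**Figure D2:**
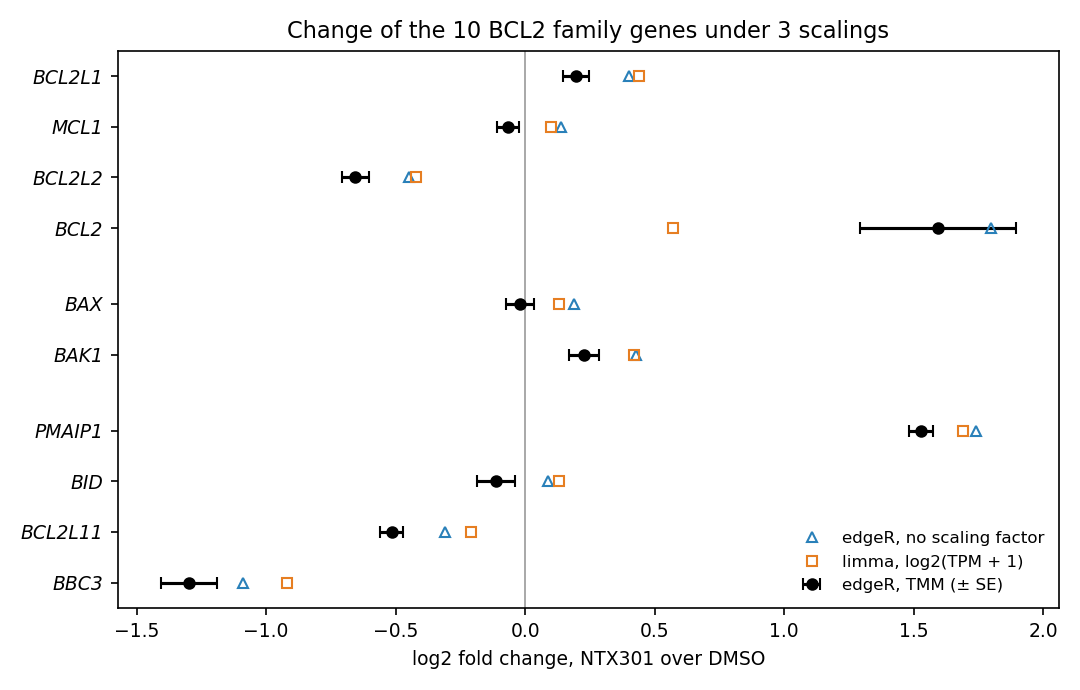
Log2 fold change, NTX301 over DMSO, of each member: black points with SE from edgeR with TMM scaling, triangles without a scaling factor, squares from limma on log2(TPM + 1). PMAIP1 and BCL2 lie to the right of 0 and BBC3, BCL2L2 and BCL2L11 to the left of it in all 3, whereas MCL1, BAX and BID cross 0 with the scaling; the square of BCL2 lies at 0.57 because the added 1 outweighs its TPM.

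Without a scaling factor, 6 members rose and 3 fell, MCL1 and BAX being added to the rises. Under that setting 8793 of 19029 tested genes rose and 4732 fell. The 4 rises and 3 falls were the same in number with DESeq2, limma-voom, no filter and both TPM settings.

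Compared per length in TPM, PMAIP1 and BAK1 stood higher in the order of the members with NTX301 than with DMSO, and BAX and BCL2L2 lower. With NTX301 the order was BCL2L1 (174 ± 5.82 TPM), MCL1 (108 ± 7.18), PMAIP1 (95.5 ± 3.25), BAX (91.2 ± 4.06), BAK1 (32.1 ± 2.36), BID (26.6 ± 2.32), BCL2L2 (25.4 ± 1.53), BCL2L11 (16.4 ± 0.416), BBC3 (5.72 ± 0.652) and BCL2 (SD, n = 3 each). PMAIP1 and BAX overlapped, as did BID and BCL2L2, and the other neighbours did not. With DMSO it was BCL2L1 (128 ± 7.64 TPM), MCL1 (100.5 ± 4.89), BAX (83.4 ± 5.64), BCL2L2 (34.3 ± 3.67), PMAIP1 (28.9 ± 0.5902), BID (24.2 ± 2.845), BAK1 (23.65 ± 0.849), BCL2L11 (19.2 ± 0.551), BBC3 (11.65 ± 0.596) and BCL2 (SD, n = 3 each). Here only BID and BAK1 overlapped. PMAIP1 thus had rank 3 with NTX301 and rank 5 with DMSO, and BCL2L2 rank 7 and rank 4.

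Ratios of 2 genes within a library do not depend on the scaling of libraries, and are given as descriptions. The ratio of PMAIP1 to MCL1 TPM was 0.9475, 0.876 and 0.835 with NTX301, against 0.3115, 0.273 and 0.281 with DMSO, 3.07-fold higher by the means. Transcripts of NOXA were thus close in number to those of its main partner with NTX301 and well below them with DMSO. The ratio of BCL2L11 to MCL1 was 0.1525 ± 0.00877 with NTX301 and 0.191 ± 0.00869 with DMSO, and that of BCL2L1 to MCL1 was 1.62 ± 0.0551 with NTX301 and 1.28 ± 0.1195 with DMSO (SD, n = 3 each). The ratio of BAX to BCL2L1 was 0.523 ± 0.0246 with NTX301 and 0.652 ± 0.0305 with DMSO (SD, n = 3 each), without overlap. The ratio of BAX to BCL2, often quoted as an index of readiness for apoptosis, was 94.7 to 158.7 with NTX301 and 293 to 896 with DMSO, but rests on 9 to 60 reads of BCL2 per library.

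The summed TPM of the 4 BH3-only genes was 148, 142 and 143 with NTX301, against 82.6, 86.25 and 82.9 with DMSO. That of the 4 pro-survival genes was 299, 302 and 324 with NTX301, against 259, 270.1 and 260.2 with DMSO, and that of BAX and BAK1 was 123 ± 5.26 with NTX301 and 107 ± 6.30 with DMSO (SD, n = 3 each). Pro-survival transcripts outnumbered BH3-only transcripts by 2.03, 2.13 and 2.27 to 1 with NTX301, and by 3.13, 3.13 and 3.14 to 1 with DMSO. They outnumbered effector transcripts by 2.50 ± 0.1065 to 1 with NTX301 and by 2.46 ± 0.1006 to 1 with DMSO (SD, n = 3 each), with overlap. On CPM this ratio was 5.88 to 6.185 with NTX301 and 6.189 to 6.814 with DMSO, without overlap and in the opposite direction. Within the BH3-only sum, PMAIP1 made up 66.2 ± 1.67% with NTX301 and 34.5 ± 1.45% with DMSO, BBC3 3.96 ± 0.367% and 13.9 ± 0.828%, BCL2L11 11.4 ± 0.519% and 22.9 ± 1.01%, and BID 18.4 ± 1.59% and 28.8 ± 2.68%, in each pair NTX301 before DMSO (SD, n = 3 each). Within the pro-survival sum, BCL2L1 made up 56.5 ± 0.7545% and 48.7 ± 2.76%, MCL1 34.4 to 35.9% and 36.7 to 39.5%, and BCL2L2 8.23 ± 0.4485% and 13.0 ± 1.425%, in each pair NTX301 before DMSO (SD, n = 3 each). Of the 4 summed BH3-only genes only PMAIP1 had a higher TPM in every NTX301 library than in any DMSO library. BBC3 and BCL2L11 were lower and BID overlapped. On CPM, which carries no length, the BH3-only sum was 151.6 ± 5.127 with NTX301 and 119.4 ± 1.277 with DMSO, whereas the pro-survival sum was 477.1 ± 8.278 with NTX301 and 481.3 ± 3.346 with DMSO and overlapped (SD, n = 3 each).

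**Figure D3:**
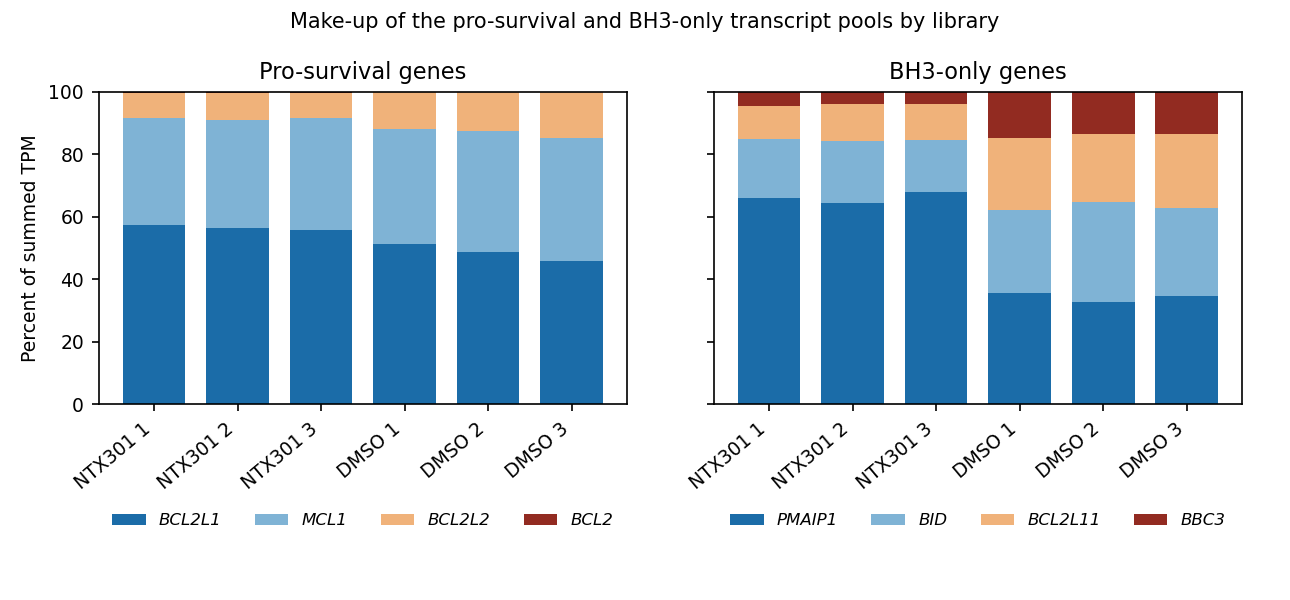
Percent of the summed TPM held by each gene in each of the 6 libraries. The 4 pro-survival members are on the left (BCL2 is too small to see) and the 4 BH3-only members on the right. PMAIP1 holds 64.6 to 67.9% of the BH3-only sum with NTX301 and 32.9 to 35.8% with DMSO, and BCL2L1 55.9 to 57.35% and 45.8 to 51.3% of the pro-survival sum.

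Several members make splice forms of opposite function, such as the long and short forms of BCL-X and MCL-1, which gene totals do not separate. The gene length that RSEM deposits is weighted by its estimated shares of transcripts and so shifts when those shares shift. Of 12019 tested genes with a variable length, 4.14% differed between groups (limma on log2 length, adjusted p under 0.05) and none of the 10 members was past the threshold. BCL2L1, with 13 annotated transcripts, was 2483, 2474 and 2505 bases long with NTX301, against 2528, 2556 and 2566 bases with DMSO. The groups did not overlap, but the log2 ratio of -0.036 ± 0.0084 was not past the threshold (limma adjusted p = 0.11, unadjusted p = 0.0092). BBC3 was 1738 ± 18.5 bases with NTX301 and 1812 ± 32.1 bases with DMSO (SD, n = 3 each), also without overlap (limma adjusted p = 0.15). The other 8 members overlapped. For MCL1 the lengths were 3811 ± 84.0 and 3712 ± 156.8 bases and for BCL2L11 4698 ± 210.1 and 4965 ± 106.6 bases, NTX301 before DMSO (SD, n = 3 each).

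Over all tested genes 35.4% rose and 35.1% fell. Among 13 further genes of the family, 11 passed the filter, of which 5 rose and 4 fell. Their median log2 fold change was 0.11, but -0.09 without NTX301 replicate 2, 0.02 without NTX301 replicate 3, and with DMSO replicate 1 or 3 left out it was 0.35 or 0.26, with 12 genes past the filter in each of these fits. The BH3-only genes again went both ways. HRK, a BH3-only gene best known from neurons, rose by 1.65 ± 0.28 on the log2 scale to 1.21 ± 0.0678 CPM, against 0.385 ± 0.0925 CPM with DMSO (SD, n = 3 each). BIK, a BH3-only protein of the endoplasmic reticulum, rose by 0.90 ± 0.14 to 5.73 CPM, against 3.06 CPM with DMSO. BMF, a BH3-only protein held at the cytoskeleton, fell by 0.91 ± 0.07 to 10.4 CPM, against 19.5 CPM with DMSO, and BAD, controlled by survival kinases, fell by 0.37 ± 0.06. BOK, an effector-like member, fell by 0.70 ± 0.04 to 41.9 CPM, against 68.3 CPM with DMSO. BNIP3L, a receptor for the removal of mitochondria, fell by 0.90 ± 0.05, while its relative BNIP3, at 0.884 CPM with NTX301 and 0.628 CPM with DMSO, was not past the threshold (log2 0.49 ± 0.27, edgeR adjusted p = 0.13), and was past it without a scaling factor (edgeR adjusted p = 0.036) and on log2(TPM + 1) (limma adjusted p = 0.013). BCL2L12 rose by 0.75 ± 0.06. BCL2L15 rose by 1.35 ± 0.20 on few reads, to 3.18 CPM, against 1.24 CPM with DMSO. On log2(TPM + 1) the log2 fold change of BCL2L15 was 0.65 (limma adjusted p = 0.021). Genes on the opposite strand overlap several of these, namely BOK-AS1 at BOK, BMF-AS1 at BMF, GPR137 at BAD, IRF3 at BCL2L12, AP4B1-AS1 at BCL2L15 and PNMA2 at BNIP3L. BCL2L13 rose by 0.11 ± 0.04 (edgeR adjusted p = 0.042), a call lost with DESeq2, without the filter and without any 1 library. BCL2L10 was not past the threshold (log2 -0.15 ± 0.26, edgeR adjusted p = 0.63), with the opposite sign without a scaling factor (0.05). BCL2A1, a pro-survival gene that NOXA also binds, did not pass the filter, with 7, 12 and 11 counts with NTX301, against 3, 0 and 0 counts with DMSO, and was called as a rise without the filter (edgeR adjusted p = 0.0025). BCL2L14 did not pass it either, at 0.1315 CPM with NTX301 and 0.47 CPM with DMSO, and was called as a fall without the filter (edgeR adjusted p = 0.0078). Where leaving out 1 library let these genes pass the filter, BCL2A1 was called as a rise (4 fits) and BCL2L14 as a fall (4 fits). They passed it there only through the group with more reads, so the direction of these calls adds no support.

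Downstream of the mitochondria, 9 of 17 genes of the death machinery rose and 2 fell, with a median of 0.18, and of 0.12 without DMSO replicate 3. Of all tested genes 35.4% rose and 35.1% fell. HTRA2, a mitochondrial protease that blocks caspase inhibitors, rose by 1.00 ± 0.05 on the log2 scale to 49.3 CPM, against 24.6 CPM with DMSO, and CYCS, cytochrome c, by 0.89 ± 0.06. APAF1, the scaffold of the apoptosome, rose by 0.62 ± 0.07, whereas CASP9, which it activates, was not past the threshold (0.18 ± 0.08, edgeR adjusted p = 0.066). It was past it when the scaling factor (edgeR adjusted p = 0.00096) or DMSO replicate 1 (edgeR adjusted p = 0.031) was left out, or log2(TPM + 1) was used (limma adjusted p = 0.0011). DFFB, the nuclease that cuts DNA in dying cells, fell by 1.00 ± 0.22 at 1.33 CPM with NTX301 and 2.65 CPM with DMSO, and its inhibitor DFFA rose by 0.58 ± 0.04. AIFM1, a mitochondrial flavoprotein that can move to the nucleus, fell by 0.18 ± 0.05 but had the opposite sign without a scaling factor (0.02, edgeR adjusted p = 0.67). CASP8, which cleaves BID, rose by 0.13 ± 0.04 (edgeR adjusted p = 0.012), a call lost without DMSO replicate 2 (edgeR adjusted p = 0.083) and without the filter. Without a scaling factor 13 genes of this list rose and 1 fell, while 8793 of all 19029 tested genes rose and 4732 fell. With 1 library left out 8 to 11 genes of the list rose and 2 fell. HTRA2 (AUP1, LOXL3), APAF1 (ANKS1B) and DFFA (PEX14) overlap the genes in brackets on the opposite strand.

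Inhibitors of apoptosis, which block caspases or mark them for breakdown, split evenly, with 3 of 7 rising and 3 falling. All tested genes split evenly too, with 35.4% rising and 35.1% falling. BIRC5, survivin, which also acts in mitosis, rose by 1.52 ± 0.09 to 127 CPM, against 44.1 CPM with DMSO. BIRC2 and BIRC3, ubiquitin ligases of TNF receptor signalling, rose by 0.66 ± 0.04 and 0.54 ± 0.06. XIAP, the direct inhibitor of caspases, fell by 0.62 ± 0.04 to 49.2 CPM, against 75.6 CPM with DMSO, and BIRC6, a giant ubiquitin ligase, fell by 0.79 ± 0.05. NAIP fell by 0.92 ± 0.29 on few reads (edgeR adjusted p = 0.015), a call lost on log2(TPM + 1) (limma adjusted p = 0.091), without a scaling factor and without DMSO replicate 3 (edgeR adjusted p = 0.075) or NTX301 replicate 2 (edgeR adjusted p = 0.068).

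Of 8 genes that act on the stability of the MCL1 protein, 1 rose and 4 fell, and 2 rose and 2 fell without a scaling factor. Over all tested genes 35.4% rose and 35.1% fell, and without a scaling factor 8793 of 19029 rose and 4732 fell. USP9X, a deubiquitinase that stabilises MCL1, fell by 0.46 ± 0.05 on the log2 scale, and TPT1, a partner that stabilises it, by 0.50 ± 0.08. TRIM17, a ubiquitin ligase for MCL1 described in neurons, rose by 0.98 ± 0.20 to 3.32 CPM, against 1.69 CPM with DMSO. MARCHF5, a ligase of the outer mitochondrial membrane, fell by 0.15 ± 0.05 with TMM, was at 0.06 without a scaling factor, and lost its call with DESeq2 (DESeq2 adjusted p = 0.082). With 1 library left out 1 to 2 genes of this list rose and 3 to 6 fell, with 2 rises without NTX301 replicate 2 and 6 falls, HUWE1 and FBXW7 added, without NTX301 replicate 3. The same genes were added without the filter on low counts. BTRC, a ligase subunit, fell by 0.18 ± 0.07 (edgeR adjusted p = 0.042), with the opposite sign without a scaling factor (0.03). Its call was lost with DESeq2, with limma-voom, and without DMSO replicate 1 or 3 or NTX301 replicate 1 or 2 (edgeR adjusted p of 0.14, 0.083, 0.12 and 0.095).

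**Figure D4:**
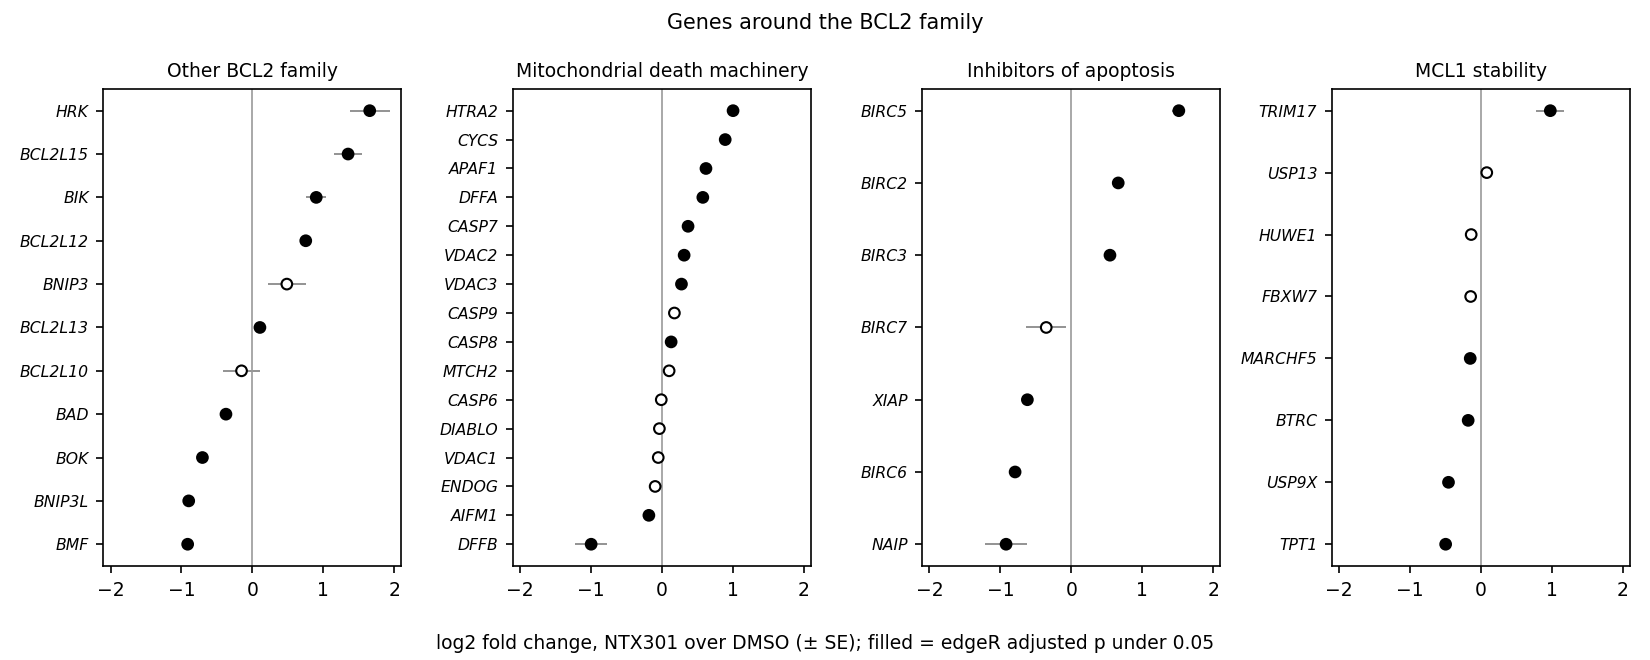
Log2 fold change, NTX301 over DMSO, with SE, of the reported tested genes in 4 lists around the family; filled points passed the edgeR threshold of 0.05 and open points did not. HRK and BIRC5 lie furthest to the right in their lists (1.65 and 1.52), and genes on both sides of 0 occur in every list.

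Of 15 tested transcription factors known to act on these genes, 6 rose and 6 fell, and 9 rose and 2 fell without a scaling factor. Over all tested genes 35.4% rose and 35.1% fell, and without a scaling factor 8793 of 19029 rose and 4732 fell. SNAI2, a repressor of BBC3 in blood progenitors, rose by 3.64 ± 0.07 on the log2 scale to 41.6 ± 1.90 CPM, against 3.32 ± 0.164 CPM with DMSO (SD, n = 3 each). ATF3 and DDIT3 (CHOP), stress-induced factors of the ATF and C/EBP families, rose by 2.34 ± 0.10 and 1.68 ± 0.05, while ATF4, which acts above both, fell by 0.34 ± 0.04 in its transcript. E2F1, which can induce several BH3-only genes, rose by 0.82 ± 0.05, and MYC, which sensitises cells to apoptosis, by 0.37 ± 0.04. TP73 was not past the threshold (0.26 ± 0.12, edgeR adjusted p = 0.065), and was past it without a scaling factor (edgeR adjusted p = 0.0033) and on log2(TPM + 1) (limma adjusted p = 0.012). FOXO3, an activator of BCL2L11 and BBC3, fell by 0.25 ± 0.05, a call absent without a scaling factor (-0.04, edgeR adjusted p = 0.47). HIF1A fell by 0.39 ± 0.04. HIF1A (HIF1A-AS1, HIF1A-AS3) and DDIT3 (MARS1, MBD6) overlap the genes in brackets on the opposite strand.

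By Euclidean distance between log2 CPM values centred on each gene's mean over the 6 libraries, the genes most like BCL2, the member with the largest rise, were GADD45G (distance 0.276), ENSG00000274943 (0.333) and TMEFF1 (0.387), among 19028 others. For BBC3, the member with the largest fall, they were HLX (0.130), ENSG00000235859 (0.144) and ORAI3 (0.146). With 6 libraries in 2 groups this likeness mostly reflects the size of the difference between the treatments.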

How the data were processed

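The authors deposited 1 gene table per library, with the columns that RSEM writes per the file headers. Expected counts, as deposited, estimate the reads of each gene and are not normalized. The deposited TPM values were scaled by the authors over all genes of a library. The deposited FPKM column was not used. Tool versions, the genome build, the annotation release and the strand setting are not stated in the labels or headers.

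The Y-chromosome copies of pseudoautosomal genes (47 entries) were added to their X copies, and symbols were matched by stable identifier (62639 of 62656 genes). Positions are from GENCODE 29 (GRCh38). Expected counts were rounded and tested in edgeR 4.0.16 (R 4.3.3) with filterByExpr, TMM and treatment as the only term over all 6 libraries, with Benjamini-Hochberg adjustment over 19029 genes. CPM values use the total over tested genes times the TMM factor. The SE is the absolute log2 fold change divided by the root of F. Length was tested with limma 3.58.1 (trend, robust) on log2 values. The edgeR step was tested on simulated counts of 19029 genes, of which 200 were changed, and 92% of the 2-fold changes were recovered. Far more genes were called in the real data, so the simulation does not check the scaling. Chi-square per degree of freedom between replicates was 2.37 to 6.57, and none was taken for a duplicate.

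The members and lists were chosen with earlier results of these data known. Named from each list were all genes called with a log2 change of at least 1, and below that up to 3 per direction. All other family genes were named too. Some listed genes enter the counts but are not reported here by name. CASP8, CASP9, TP73 and MARCHF5 fall outside this rule and were chosen after their values were seen. Alternatives were DESeq2 1.42.0, limma-voom, no scaling factor, no filter, log2(TPM + 1), log2(TPM + 0.1), a replicate block and each library left out.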

Additional observations from a re-analysis of the deposited data

How the results depend on the processing

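PMAIP1, BCL2, BCL2L1, BAK1, BBC3, BCL2L2 and BCL2L11 kept their direction and stayed past the threshold in all 13 alternatives. MCL1, BAX and BID had a log2 fold change of 0.14, 0.19 and 0.09 without a scaling factor, 0.10, 0.13 and 0.13 on log2(TPM + 1), and 0.10, 0.13 and 0.14 on log2(TPM + 0.1), each with the sign opposite to that with TMM. These settings move the median of all genes, so a member near 0 crosses it. With 1 library left out, the log2 fold change of BAX ranged from -0.07 to 0.01 (above 0 without NTX301 replicate 3 or DMSO replicate 1) and that of BID from -0.18 to -0.07. Over all genes, the count that fell was 6677 with edgeR and TMM, 4318 on log2(TPM + 1) and 4297 on log2(TPM + 0.1).

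The labels do not say whether replicate numbers pair the libraries. Over all tested genes, deviations of same-numbered libraries correlated at 0.08, -0.028 and 0.043, and those of differently numbered libraries at -0.1 to 0.055. Weak correlations over all genes cannot exclude a pairing seen in some genes. BAX had its highest CPM in replicate 1 and its lowest in replicate 3 of both groups, but the order in any 1 gene cannot show a pairing. With the replicate block, 4 members rose and 3 fell, as without it, over all genes 6837 rose and 6749 fell, and in the MCL1-stability list 6 genes fell in place of 4 (HUWE1 and FBXW7 added). For gene length, limma called 112 genes longer and 385 shorter with NTX301. With the replicate block the counts were 0 and 0, although 1882 genes had an unadjusted p under 0.05, and with 1 library left out they ranged from 24 to 53 and from 92 to 169. The length of no member was called in any of these fits (lowest limma adjusted p = 0.11, for BCL2L1).

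The TPM ratio of pro-survival to effector genes was 0.03 on the log2 scale, NTX301 over DMSO, and -0.10 from CPM, where the groups did not overlap. BCL2 is the member that depth limits most.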
